A study of Homo sapiens with 4 samples.

Results

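C/EBPs are transcription factors that bind CCAAT-type enhancer sequences, and 5 human genes with a CEBP symbol were measured here in Huh7 cells: CEBPA, CEBPB, CEBPD, CEBPG and CEBPZ. They are 5 of the 20226 genes in each table, and all 5 symbols were found once. The members were chosen by gene symbol, and the family was picked from earlier results in which CEBPA and CEBPB were lower in shNUP210 libraries, so their values in this contrast are a description. They entered the fit over all genes, whose calls for them are printed beside the background with nothing read from them. Huh7 is an established cell line grown from a human liver carcinoma. The compared groups were 2 libraries from cells carrying a hairpin directed at NUP210, a membrane-spanning glycoprotein gene of the nuclear pore complex (shNUP210), and 2 from control-hairpin cells that the labels call wild type (shCon), and all 4 were labelled untreated. The labels name no other allele, agent or time point, and do not say how many hairpins or clones were used. They also do not say that replicate libraries were grown apart, so the p-values reflect the spread among 4 libraries, and that spread may be technical.

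C/EBP-alpha, -beta, -delta and -gamma share a basic region that contacts DNA and a leucine zipper through which they form homodimers and heterodimers. In liver, C/EBP-alpha sustains the expression of plasma protein and metabolic genes and restrains division, while C/EBP-beta and C/EBP-delta are induced in the acute phase response to interleukin signals. C/EBP-gamma lacks a transactivation domain of its own and pairs with other family members or with ATF4. CEBPZ carries the family's name for binding a CCAAT element, but its protein has no leucine zipper and is the human relative of a yeast ribosome assembly factor.

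The targeted gene was checked first. NUP210 had 10.1 and 9.85 TPM in the shNUP210 libraries, against 32.8 and 27.3 TPM in the shCon libraries (TPM is a transcript abundance scaled for transcript length and library total). Its limma adjusted p was 0.0432, and 0.162 to 0.167 when 1 library was left out. The hepatocyte label was checked on 8 markers. All 8 were measured. APOA1 and APOA2, apolipoprotein genes, fell and KRT8 and KRT18, keratin genes, rose (limma adjusted p of 0.00253 to 0.0247). The list had summed TPM of 35147.3 and 35888.9 in shNUP210 and 44803.8 and 46335.5 in shCon libraries. Of these sums APOA2 alone gave 16902.5 and 17349.8 TPM in shNUP210 and 26122.8 and 28242.7 TPM in shCon libraries. In TPM as deposited, log2 fold changes were below 0 for APOA1 and APOA2 and above 0 for the other 6. AFP, the fetal liver marker, stood at 5450 to 6054 TPM. Of 12 markers of blood, endothelial, fibroblast and biliary cells, 7 were analysed, with summed TPM of 284.4 and 237.5 in shNUP210 and 278.0 and 245.5 in shCon libraries. None of these 7 was at 0 in every library. LYZ, encoding lysozyme, was lower (26.9 and 19.5 TPM in shNUP210, 130.5 and 124.5 TPM in shCon, limma adjusted p = 0.00977), and KRT19, a biliary keratin, was higher (192.3 and 182.4 TPM in shNUP210, 75.1 and 58.1 TPM in shCon, limma adjusted p = 0.0215). The other 4 tested markers did not pass and had no common direction. EPCAM, another epithelial and biliary marker, had 19.2 and 16.9 TPM in shNUP210 and 32.9 and 32.5 TPM in shCon libraries (limma adjusted p = 0.0917). COL1A1, a fibroblast collagen gene, had 18.9 and 7.55 TPM in shNUP210 and 1.25 and 3.8 TPM in shCon libraries (limma adjusted p = 0.136). Their part in the C/EBP values was not tested.

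RefSeq promoter windows (GRCh38.p14, from 250 bases before to 50 bases from the start site on) were taken for 4 of the 5 genes. CEBPD was left out of this step, so its missing window does not mean that RefSeq lists none. The windows are shown as the start regions of genes whose levels are compared. CEBPA (chr19:33302485-33302784, minus strand) and CEBPB (chr20:50190580-50190879, plus strand) each had 1 TATAAA match, 30 and 29 bases before the start. RefSeq gives CEBPB another window (chr20:50190333-50190632), not printed, which has no TATAAA and 1 CCAAT match. The 2 CEBPG windows (chr19:33373459-33373758 and chr19:33373863-33374162, plus strand) had none. Capitals mark matches, on either strand, to TATAAA (the core promoter box), CCAAT (bound by the factor NF-Y), TTGCNNAA (the C/EBP core pair), TGATGNAA (the composite element of C/EBP and ATF factors), TGACG (the CRE core) and CACGTG (the E-box). GGGCGG (the GC box) was searched too and is left in lower case. None of the capitalised matches overlap each other in the printed windows. The printed sequences run 5′ to 3′ on the strand of the gene.
CEBPA: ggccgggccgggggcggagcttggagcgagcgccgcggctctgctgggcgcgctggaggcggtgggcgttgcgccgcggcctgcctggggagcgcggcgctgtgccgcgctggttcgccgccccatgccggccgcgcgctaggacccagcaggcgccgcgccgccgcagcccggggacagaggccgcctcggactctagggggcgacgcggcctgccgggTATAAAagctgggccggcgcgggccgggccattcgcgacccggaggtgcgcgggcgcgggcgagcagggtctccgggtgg
CEBPB: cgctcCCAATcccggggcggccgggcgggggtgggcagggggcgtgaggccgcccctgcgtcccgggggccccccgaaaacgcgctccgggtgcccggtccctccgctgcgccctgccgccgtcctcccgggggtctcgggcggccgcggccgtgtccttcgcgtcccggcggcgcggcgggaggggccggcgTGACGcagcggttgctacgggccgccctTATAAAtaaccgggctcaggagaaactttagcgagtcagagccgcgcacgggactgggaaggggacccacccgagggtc
CEBPG, first start: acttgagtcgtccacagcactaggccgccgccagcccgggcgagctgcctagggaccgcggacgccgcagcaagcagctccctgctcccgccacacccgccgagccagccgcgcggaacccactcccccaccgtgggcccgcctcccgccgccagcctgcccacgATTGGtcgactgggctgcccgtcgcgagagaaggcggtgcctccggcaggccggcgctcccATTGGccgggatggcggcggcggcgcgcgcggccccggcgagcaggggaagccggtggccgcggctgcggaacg
CEBPG, second start: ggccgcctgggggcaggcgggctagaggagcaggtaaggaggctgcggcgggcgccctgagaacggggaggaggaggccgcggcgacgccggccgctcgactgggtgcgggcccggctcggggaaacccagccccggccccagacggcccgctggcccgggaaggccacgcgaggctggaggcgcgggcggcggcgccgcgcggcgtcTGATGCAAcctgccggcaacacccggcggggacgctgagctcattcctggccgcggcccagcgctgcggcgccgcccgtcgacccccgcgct

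Among all 35116 RefSeq windows, 11.5% held TATAAA, 34.6% CCAAT, 10.5% TTGCNNAA, 3.62% TGATGNAA, 24.6% TGACG, 7.26% CACGTG and 45% GGGCGG. The printed CEBPB window also had a CCAAT match 245 bases and a TGACG match 57 bases before its start. The first CEBPG window had 2 CCAAT boxes on the opposite strand, at 85 and 24 bases before the start, and the second had TGATGCAA at 42 bases before it. No printed window held TTGCNNAA, which says only that these letters are not in these windows. All 4 printed windows were rich in G and C, with 76.7 to 80.7% against a median of 58.7% over all windows. The CEBPZ window had 62.7%. The CEBPA window shares 214 bases with that of CEBPA-DT, the divergent noncoding gene on the other strand.

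CEBPA and CEBPB were lower in the knockdown libraries, while CEBPD, CEBPG and CEBPZ differed little. CEBPA (ENSG00000245848, GRCh38 chromosome 19, 33299934 to 33302564, minus strand, a single-exon protein-coding gene) encodes the main C/EBP of differentiated hepatocytes. It had 346 and 331 TPM in the shNUP210 libraries, against 528 and 515 TPM in the shCon libraries. Both shNUP210 libraries lay below both shCon libraries, and the gap between groups was far wider than that within either. The means were 338.8 ± 10.7 TPM in shNUP210 and 521.6 ± 9.56 TPM in shCon (SD, n = 2 each), a ratio of 0.65. The fold change on the log2(TPM + 1) scale was -0.62 (SE 0.085). In bulk RNA, fewer cells with the transcript and less transcript per cell cannot be told apart.

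CEBPB (ENSG00000172216, chromosome 20, 50190734 to 50192689, plus strand, also a single exon) encodes the C/EBP of the acute phase and of regenerating liver. Its levels were 96.1 and 100.1 TPM in the shNUP210 libraries, against 184 and 163 TPM in the shCon libraries. The groups did not overlap, and the shCon libraries were farther apart than the shNUP210 libraries. The means were 98.1 ± 2.87 TPM in shNUP210 and 173.6 ± 15.4 TPM in shCon (SD, n = 2 each), a ratio of 0.565. The log2 fold change was -0.81 (SE 0.126).

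CEBPD (ENSG00000221869, chromosome 8, 47736909 to 47739086, minus strand, single exon) encodes a C/EBP induced early by cytokines and glucocorticoids. It had 95.3 and 90.9 TPM in shNUP210 libraries, against 101.5 and 96.1 TPM in the shCon libraries. The groups did not overlap, but the highest shNUP210 and the lowest shCon library were closer to each other than the libraries within either group. The means were 93.1 ± 3.08 TPM in shNUP210 and 98.8 ± 3.78 TPM in shCon (SD, n = 2 each), with a log2 fold change of -0.08 (SE 0.127).

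CEBPG (ENSG00000153879, chromosome 19, 33373330 to 33382686, plus strand) encodes the dimer partner without an activation domain, from 2 listed transcripts of 2 exons each. It had 14.0 and 14.2 TPM in the shNUP210 libraries and 14.9 and 14.3 TPM in the shCon libraries, the narrowest range over the 4 libraries of the 5 genes as a share of its level. The lower shCon library lay just above the higher shNUP210 library. The log2 fold change was -0.04 (SE 0.243). CEBPZ (ENSG00000115816, chromosome 2, 37201612 to 37231713, minus strand, up to 16 exons) had 4.55 and 3.68 TPM in shNUP210 and 3.72 and 3.91 TPM in shCon libraries, so its groups overlapped. It stayed under the filter of 5 TPM in 2 libraries, so 4 of the 5 members entered the fit. Its log2 fold change was 0.08, with an SE of 0.358 in the fit with a filter of 1 TPM.

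**Figure D1:**
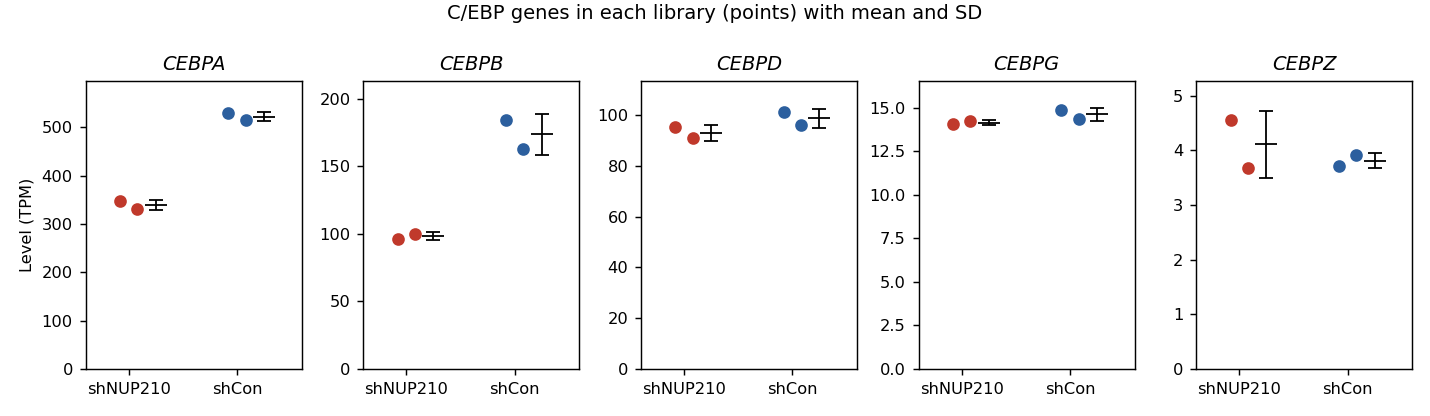
Level in TPM of each C/EBP gene in the 2 shNUP210 libraries (red points) and the 2 shCon libraries (blue points), with the mean and SD of each group in black; each panel has its own axis from 0. CEBPA (338.8 against 521.6 TPM) and CEBPB (98.1 against 173.6 TPM) separate by group, whereas the CEBPD, CEBPG and CEBPZ points lie close together.

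Set against all genes, the fit called 2 of these 4 members lower (CEBPA and CEBPB) and 0 higher. Of 10140 tested genes, 1.07% were called lower and 1.79% higher at a limma adjusted p under 0.05, and since this contrast was known when the family was picked, nothing is read from the members' count. These were 109 lower and 181 higher genes, against 250 lower and 78 higher after trimmed-mean scaling, 248 and 81 after median-ratio scaling and 118 and 87 after quantile scaling. Both shNUP210 libraries lay below both shCon libraries for 4 members and above them for 0, with CEBPZ overlapping. The same held for 14.3% (below) and 42.9% (above) of the tested genes. Over the tested genes the log2 fold changes had a median of 0.23, and relative to it CEBPA stood at -0.86, CEBPB at -1.05, CEBPD at -0.32, CEBPG at -0.28 and CEBPZ at -0.15. Of the tested genes, 6.11% had a lower fold change than CEBPA and 3.95% a lower one than CEBPB, against 24.8% for CEBPD, 27.8% for CEBPG and 37.1% for CEBPZ. The calls of CEBPA and CEBPB were lost when any library was left out.

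**Figure D2:**
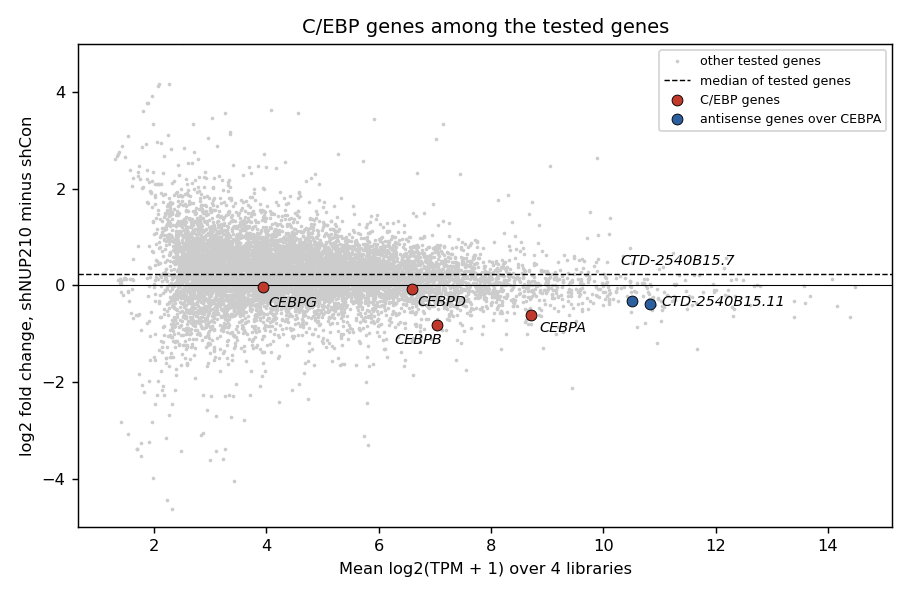
Log2 fold change (shNUP210 minus shCon, y axis) against mean log2(TPM + 1) over the 4 libraries (x axis) for the 10140 tested genes (grey), the 4 C/EBP genes that entered the fit (red) and the 2 antisense genes that overlap CEBPA (blue); the dashed line is the median of tested genes, 0.23. CEBPA (-0.62) and CEBPB (-0.81) lie well under the dashed line, and CEBPD and CEBPG just under 0.

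The scaling of the libraries moved each member's fold change but kept those of CEBPA, CEBPB, CEBPD and CEBPG below 0. CEBPZ was above 0 in TPM as deposited and below 0 after trimmed-mean (-0.11), median-ratio (-0.11) and quantile scaling (-0.23), and without shNUP210 replicate 1 (-0.04). A single size factor per library, as in trimmed-mean and median-ratio scaling, leaves the TPM ratio of any 2 members within a library as it is, whereas quantile scaling does not. The difference in log2 fold change between CEBPD and CEBPG was -0.04 in TPM as deposited and 0.10 after quantile scaling, a change of sign, and that between CEBPA and CEBPD was -0.54 and -0.43. The ratios that follow are of TPM as deposited. The CEBPA to CEBPD ratio was 3.64 in both shNUP210 libraries, against 5.21 and 5.36 in the shCon libraries. The CEBPB to CEBPD ratio was 1.01 and 1.1 in shNUP210, against 1.82 and 1.69 in shCon libraries. Both ratios were thus lower in each knockdown library than in either control library. The CEBPA to CEBPB ratio was 3.61 and 3.31 in shNUP210 and 2.86 and 3.16 in shCon libraries, a gap between groups smaller than the spread within either. The CEBPD to CEBPG ratio was 6.79 and 6.39 in shNUP210 and 6.83 and 6.7 in shCon libraries, and its groups overlapped. With 2 libraries against 2, an exact permutation test cannot give a two-sided p below 0.33, so none was run on the ratios.

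**Figure D3:**
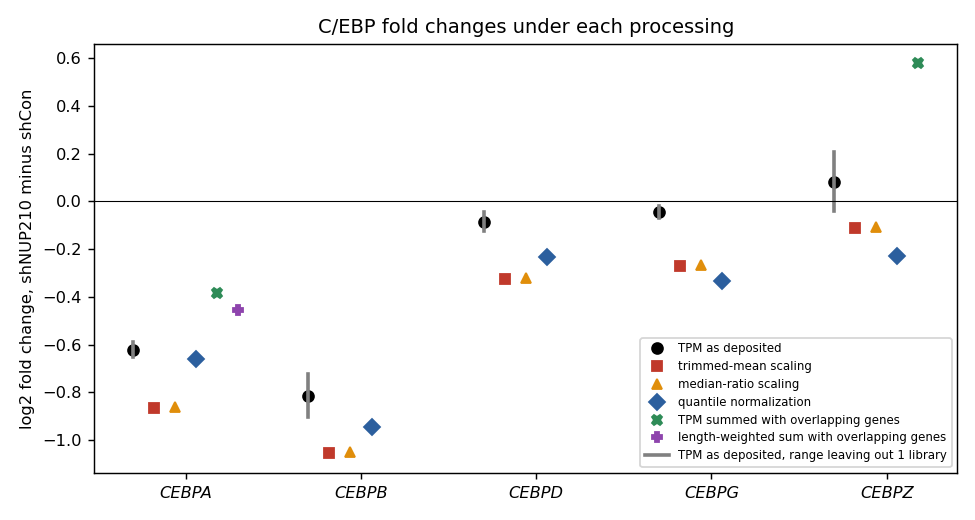
Log2 fold change (shNUP210 minus shCon, y axis) of each C/EBP gene in TPM as deposited (black) and under other processing (coloured symbols); the grey line spans the values with 1 library left out. CEBPA runs from -0.86 to -0.38 and CEBPB from -1.06 to -0.72, while CEBPZ lies on both sides of 0.

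On the TPM scale, which is per transcript length, CEBPA was the most abundant of the 5 in every library, at ranks 390 and 406 of all listed genes in shNUP210 and 256 and 264 in shCon libraries. In the shCon libraries the order was CEBPA, CEBPB, CEBPD, CEBPG, CEBPZ, with no overlap between neighbours. In the shNUP210 libraries CEBPB (96.1 and 100.1 TPM) and CEBPD (95.3 and 90.9 TPM) stood side by side, with less than 1 TPM between the nearest libraries. The summed level of the 5 genes was 548.3 ± 11.4 TPM in shNUP210 and 812.4 ± 29 TPM in shCon libraries (SD, n = 2 each). CEBPA made up 62.3 and 61.3% of that sum in shNUP210 and 63.4 and 65.0% in shCon libraries. CEBPB made up 17.3 and 18.5% in shNUP210 against 22.1 and 20.5% in shCon, and CEBPD 17.1 and 16.8% in shNUP210 against 12.2 and 12.1% in shCon. Within the summed message, CEBPD thus held a larger share in both knockdown libraries than in either control library, with a TPM level that was itself no higher. The same held for the shares of CEBPG (2.52 and 2.64% in shNUP210, 1.78 and 1.81% in shCon) and CEBPZ (0.818 and 0.681% in shNUP210, 0.447 and 0.494% in shCon). A share rises for any member that falls less than the sum.

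The level of CEBPA is uncertain, because 1141 of its 2631 exon bases (43.4%) are shared with 2 listed antisense genes that lie wholly inside it. CTD-2540B15.11 (ENSG00000267580, chromosome 19, 33299934 to 33301168) had 1445 and 1752 TPM in shNUP210 and 2043 and 2100 TPM in shCon libraries. CTD-2540B15.7 (ENSG00000267727, 33301279 to 33301940) had 1303 and 1313 TPM in shNUP210 and 1710 and 1557 TPM in shCon libraries. Both were listed above CEBPA itself in every library, and both were lower in shNUP210 than in shCon libraries without overlap (log2 fold changes of -0.38 and -0.32), but neither passed (limma adjusted p = 0.108 and 0.0842). The sources used here do not say whether reads were assigned by strand, and without strand the reads of CEBPA and of these genes cannot be told apart. Weighted by exon length, CEBPA held 36.6 and 32.8% of the signal of the 3 genes in shNUP210 and 39.0 and 38.8% in shCon libraries. The length-weighted sum, in CEBPA TPM equivalents, was 947 and 1011 in shNUP210 and 1353 and 1326 in shCon libraries, a log2 fold change of -0.45.

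**Figure D4:**
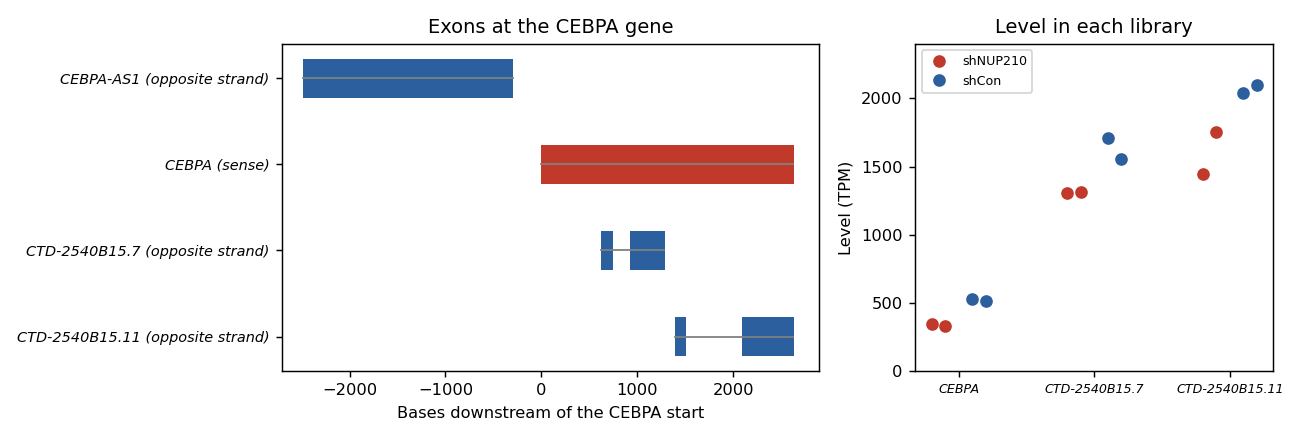
Left, exons of CEBPA (red) and of genes on the opposite strand (blue) by bases downstream of the CEBPA start; right, level in TPM of CEBPA and the 2 antisense genes inside it in shNUP210 (red) and shCon (blue) libraries. Both antisense genes lie within the single CEBPA exon and stand above it in TPM (1303 to 2100 against 331 to 528).

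The divergent transcript CEBPA-DT, listed as CEBPA-AS1 (ENSG00000267296), starts 293 bases from CEBPA and shares no exon with it. It had 6.97 and 6.69 TPM in shNUP210 and 5.67 and 4.79 TPM in shCon libraries. Its log2 fold change was thus of the opposite sign to that of CEBPA (0.33, limma adjusted p = 0.603), without passing the test. CEBPZ shares 351 exon bases with CEBPZOS, listed as CEBPZ-AS1, 408 with RP11-423P10.2 and 83 with NDUFAF7, a mitochondrial complex I assembly gene. CEBPZOS had 12.7 and 7.14 TPM in shNUP210 and 8.16 and 1.11 TPM in shCon libraries, so its groups overlapped and its own replicates were far apart (limma adjusted p = 0.349). RP11-423P10.2 stayed between 0.92 and 1.68 TPM, and NDUFAF7 between 6.93 and 10.6 TPM. CEBPB, CEBPD and CEBPG share no exon base with another gene analysed here.

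The genes most like each member were found by the Euclidean distance between log2(TPM + 1) profiles over the 4 libraries, each centred on its own mean, among 8898 tested protein-coding genes. Nearest to CEBPA were SFT2D3 (distance 0.03), CHST13, a chondroitin sulfotransferase (0.037), and FAH, the last enzyme of tyrosine breakdown (0.043). FAH had 22.5 and 21.3 TPM in shNUP210, against 34.1 and 34.6 TPM in shCon libraries. Nearest to CEBPB were ASB9 (0.068), SARDH, the mitochondrial sarcosine dehydrogenase (0.083), and DDC, the decarboxylase of DOPA (0.086). DDC had 32.4 and 32.2 TPM in shNUP210, against 57.8 and 52.6 TPM in shCon libraries. None of these 6 passed the test (limma adjusted p of 0.0519 to 0.281). EIF3G (0.015), HEXIM2 (0.016) and EIF4G1 (0.028) were nearest to CEBPD, and PSMC3 (0.01), MRPL37 (0.021) and RPL23A (0.026) to CEBPG. These 6 genes had log2 fold changes between -0.10 and -0.04.

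Among bZIP factors that pair with C/EBPs or bind related elements, no member was called. Of 16 in the list, 9 were tested, and 0 had an unadjusted limma p under 0.05, against 24.3% of all tested genes. Their median log2 fold change was 0.15, against 0.23 over all tested genes, and it was -0.08 after trimmed-mean scaling. ATF4, the stress-response partner of C/EBP-gamma and C/EBP-beta, had 227 and 256 TPM in shNUP210 and 266 and 283 TPM in shCon libraries (limma adjusted p = 0.348). JUN, a subunit of AP-1, had 67.0 and 64.3 TPM in shNUP210 and 58.8 and 54.9 TPM in shCon libraries (limma adjusted p = 0.426). DDIT3, the C/EBP homologous protein CHOP that blocks DNA binding by its partners, had 11.8 and 11.6 TPM in shNUP210 and 15.8 and 7.96 TPM in shCon libraries, so its groups overlapped. CEBPE, the granulocyte C/EBP, was not analysed here. Under the filter and so untested, TEF, HLF, FOS and BATF2 were lower in both shNUP210 libraries than in either shCon library, while BATF and BATF3 overlapped. TEF had 3.73 and 1.85 TPM in shNUP210 and 14.4 and 4.95 TPM in shCon libraries, and HLF 2.45 and 2.23 against 5.91 and 4.39 TPM. FOS had 0.28 and 0 TPM in shNUP210 and 1.48 and 4.38 TPM in shCon libraries. The log2 fold change of ATF4 was -0.18 and that of JUN 0.21 in TPM as deposited, and after trimmed-mean scaling they were -0.43 and -0.03.

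Of 22 upstream regulators and cofactors of C/EBPs, 18 were tested and limma called 0, with 5 at an unadjusted p under 0.05 (24.3% of all tested genes). Their median log2 fold change was 0.28, against 0.23 over all tested genes. After trimmed-mean scaling it was 0.04, with 9 below and 9 above 0. CDK4, a cyclin-dependent kinase that C/EBP-alpha contacts, had 233 and 252 TPM in shNUP210 and 271 and 275 TPM in shCon libraries (limma adjusted p = 0.343). SMARCB1, a core subunit of the SWI/SNF remodeller that C/EBP-alpha recruits, had 163 and 159 TPM in shNUP210 and 148 and 141 TPM in shCon libraries (limma adjusted p = 0.432). Among the 5 at an unadjusted limma p under 0.05 were STAT3, CDK2, GSK3B and RB1, named after their values were seen. Each of these 4 was higher in both shNUP210 libraries than in either shCon library. The same held for 9 of the 18 tested regulators and for 42.9% of all tested genes. STAT3, which carries the interleukin-6 signal to CEBPB and CEBPD, had 23.0 and 22.9 TPM in shNUP210 and 11.98 and 12.5 TPM in shCon libraries (log2 fold change 0.85, limma adjusted p = 0.107). COP1, the ubiquitin ligase that degrades C/EBP-alpha with Tribbles proteins, had 7.4 and 6.59 TPM in shNUP210 and 10.3 and 13.8 TPM in shCon libraries (limma adjusted p = 0.251). Its partner gene TRIB1 was not tested, at 5.76 and 3.67 TPM in shNUP210 and 4.07 and 2.89 TPM in shCon.

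Of 13 hepatocyte genes with known C/EBP elements, 10 were measured and 8 tested, and 2 fell, 0 rose and 6 did not pass. Of all tested genes, 1.07% were called lower and 1.79% higher. In the list, 5 had an unadjusted limma p under 0.05, against 24.3% of all tested genes. The list's log2 fold changes were below 0 for 5 and above 0 for 3 in TPM as deposited. After trimmed-mean scaling they were below 0 for 7 and above 0 for 1, TTR. The list's median log2 fold change was -0.44, against 0.23 over all tested genes. APOC3, an apolipoprotein that slows triglyceride clearance, fell to 45.5 and 44.1 TPM in shNUP210, against 109.6 and 89.2 TPM in shCon libraries (log2 fold change -1.13, SE 0.164, limma adjusted p = 0.0379). The gene of the protease inhibitor alpha-1 antitrypsin, SERPINA1, fell to 1617 and 1602 TPM in shNUP210, against 2716 and 2635 TPM in shCon libraries (log2 fold change -0.73, limma adjusted p = 0.00977). ALB, encoding albumin, had a ratio of 1.01, and TTR, encoding transthyretin, one of 1.48 (limma adjusted p = 0.949 and 0.0501). The urea cycle genes CPS1 (0.99 and 0.43 TPM in shNUP210, 5.51 and 6.61 TPM in shCon) and ARG1 (7.55 and 8.79 TPM in shNUP210, 25.6 and 17.2 TPM in shCon), named after their values were seen, had the lowest fold changes of the list and did not pass (limma adjusted p = 0.105 and 0.089). PCK1, the gluconeogenic enzyme gene, was listed at 0 in both shNUP210 libraries and at 0.19 and 0.96 TPM in shCon libraries.

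Of 11 acute phase genes with C/EBP elements, 7 were tested, and 2 fell, 0 rose and 5 did not pass. Of all tested genes, 1.07% were called lower and 1.79% higher. In the list, 4 had an unadjusted limma p under 0.05, against 24.3% of all tested genes. The list's median log2 fold change was -0.80, against 0.23 over all tested genes. In 5 of the 7, and in 14.3% of all tested genes, both shNUP210 libraries lay below both shCon libraries. ORM1, encoding the plasma carrier orosomucoid, fell to 166 and 180 TPM in shNUP210, against 298 and 325 TPM in shCon libraries (log2 fold change -0.84, SE 0.108, limma adjusted p = 0.0296). ORM1 has a near-identical neighbour, ORM2, and reads could be split between them. ORM2 had 68.0 and 82.7 TPM in shNUP210 and 136.3 and 125.7 TPM in shCon libraries, with nearly the same fold change (-0.80, limma adjusted p = 0.0595), and it passed after trimmed-mean scaling (0.0334). AGT, encoding angiotensinogen, fell to 320 and 293 TPM in shNUP210, against 557 and 515 TPM in shCon libraries (log2 fold change -0.81, SE 0.097, limma adjusted p = 0.0263). FGB, the fibrinogen beta chain, had a ratio of 0.993, and HPX, the haem carrier hemopexin, one of 0.658 (limma adjusted p = 0.948 and 0.118). HP, encoding haptoglobin, had 22.9 and 5.5 TPM in shNUP210 and 25.1 and 23.2 TPM in shCon libraries and did not pass (limma adjusted p = 0.347). Its log2 fold change of -1.01 rested on 1 library and was -0.07 without shNUP210 replicate 2. In TPM as deposited, the list's log2 fold changes were below 0 for 6 tested genes and above 0 for 1, C3. C3, encoding a complement protein, had 136 and 152 TPM in shNUP210 and 132 and 129 TPM in shCon libraries (limma adjusted p = 0.519). SAA1 and LBP were listed at 0 in both shNUP210 libraries and at 0.82 to 3.89 TPM in shCon libraries. SAA2, also untested, had 0 and 1.94 TPM in shNUP210 and 0 and 3.4 TPM in shCon libraries, so its groups overlapped. The limma calls of APOC3, SERPINA1, ORM1 and AGT were each lost without any 1 of the libraries (adjusted p of 0.0829 to 0.156), and only that of SERPINA1 held with a filter of 1 TPM (0.0247, against 0.0547 to 0.0706 for the others).

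**Figure D5:**
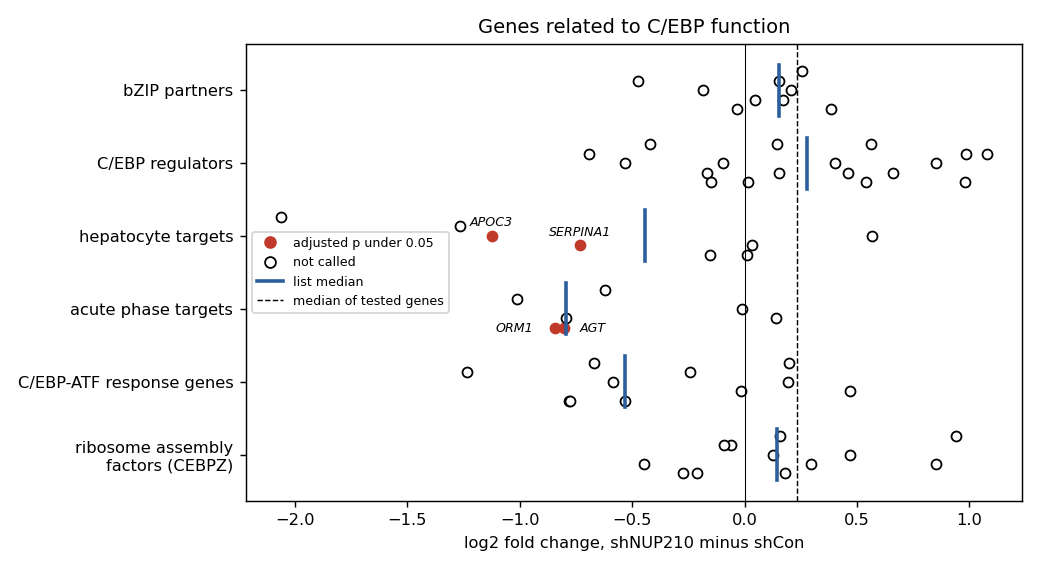
Log2 fold change (shNUP210 minus shCon, x axis) of the tested genes in 6 lists related to C/EBP function; filled red points passed a limma adjusted p under 0.05, open points did not, blue bars are list medians and the dashed line is the median of all tested genes, 0.23. The 4 called genes are APOC3, SERPINA1, ORM1 and AGT, all lower, and the medians of the hepatocyte (-0.44), acute phase (-0.80) and C/EBP-ATF response (-0.53) lists lie below 0.

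Genes with composite C/EBP-ATF elements, which answer amino acid shortage, gave 0 calls by limma among 11 tested, with 5 at an unadjusted p under 0.05, a threshold that 24.3% of all tested genes passed. Their median log2 fold change was -0.53, against 0.23 over all tested genes. The log2 fold changes were below 0 for 8 and above 0 for 3 in TPM as deposited. PHGDH, the first enzyme of serine synthesis, had 165 and 163 TPM in shNUP210 and 239 and 237 TPM in shCon libraries (log2 fold change -0.53, limma adjusted p = 0.0587). SLC3A2, the heavy chain of amino acid exchangers, had 197 and 302 TPM in shNUP210 and 282 and 296 TPM in shCon libraries, and its groups overlapped. Trimmed-mean scaling called PHGDH, TRIB3 and DDIT4 lower (limma adjusted p = 0.0271, 0.0458 and 0.0458). Of all 10140 tested genes, that scaling called 250 lower and 78 higher, against 109 lower and 181 higher in TPM as deposited. Named after their values were seen, TRIB3, a pseudokinase gene induced by ATF4 and CHOP, had 38.6 and 36.1 TPM in shNUP210 and 61.8 and 58.3 TPM in shCon libraries, and DDIT4, an inhibitor of mTORC1 signalling, 14.6 and 10.7 TPM in shNUP210 and 33.7 and 28.1 TPM in shCon libraries. ASNS, encoding asparagine synthetase, and WARS1, a tRNA synthetase gene, were the others of the 5, with log2 fold changes of -0.78 each. The 3 above 0 were CARS1 (0.47), MTHFD2 (0.20) and SESN2 (0.20), and PSAT1 was at -0.02. CARS1 was higher in both shNUP210 libraries than in either shCon library (limma adjusted p = 0.368).

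Ribosome assembly factors, the group in which CEBPZ acts, gave 0 calls by limma among 12 tested, with 2 at an unadjusted p under 0.05, no larger a share than the 24.3% of all tested genes. Their median log2 fold change was 0.14, and -0.09 after trimmed-mean scaling. NOC2L, whose yeast counterpart binds that of CEBPZ, had 124 and 113 TPM in shNUP210 and 127 and 119 TPM in shCon libraries (limma adjusted p = 0.801). BOP1, a factor of large-subunit maturation, had 157 and 159 TPM in shNUP210 and 195 and 187 TPM in shCon libraries (limma adjusted p = 0.193). EBNA1BP2, the other of the 2 and named after its values were seen, was at 109 and 111 TPM in shNUP210 and 55.3 and 66.1 TPM in shCon libraries (limma adjusted p = 0.0511). CEBPZ itself was at 3.68 to 4.55 TPM, under NOC2L, BOP1 and EBNA1BP2 in every library.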

How the data were processed

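RNA from 2 shNUP210 and 2 shCon libraries of Huh7 cells was sequenced after Trizol extraction and TruSeq RNA library preparation, per the labels' protocols. The authors deposited 1 table per library with a TPM value for each gene. Each column sums to between 999992.7 and 999997.8. The tools were DESeq, RSEM, STAR and Trimmomatic and the build hg38, per the submitters' processing notes, which give no versions or roles here and no annotation release. TPM keeps no read depth, so depth is unknown and no counting interval is given. Gene positions were taken from GENCODE 29 (GRCh38), where 19460 of the 20226 identifiers were found, and promoters from RefSeq.

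Values were analysed as log2(TPM + 1) in limma 3.58.1 (R 4.3.3) with a mean-variance trend, for genes with at least 5 TPM in 2 libraries. P-values were two-sided and corrected for 10140 tests (Benjamini-Hochberg), with genes called under an adjusted p of 0.05. Folds on this scale understate changes of low genes. The script was tested on simulated data.

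The members, the gene lists, the filter and the scaling were chosen with earlier results of these data known. Named genes are the members, genes overlapping them or divergent from them, NUP210, the called and the 2 most abundant uncalled genes of each list, and the 3 protein-coding genes nearest each tested member; any other gene was named after its values were seen. Alternatives were scaling, pseudocount, filter, variance trend, each library left out and the replicate number as a block. The values of 1 listed regulator are not reported here.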

Additional observations from a re-analysis of the deposited data

How the results depend on the processing

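With 2 libraries per group and unknown depth, calls are sensitive to the model. The 290 calls became 57 with a filter of 1 TPM in 2 libraries, 15 with no filter, 0 without the variance trend (2290 genes at an unadjusted p under 0.05) and 4 to 27 with 1 library left out. Leaving out a library leaves 1 sample in its group, which is assumed to vary like the other group. The replicate numbers are not stated to pair the libraries, and the differences between replicates 1 and 2 correlated by 0.0231 between groups; with the replicate number as a block 63 genes were called. Of the C/EBP genes, 2 were called, also under the 3 other scalings and with a pseudocount of 0.1. The count was 0 with the filter of 1 TPM, with no filter, without the trend, with the replicate block and with any library left out; the contrast chose these genes, so nothing is read from their counts. Calls in the hepatocyte list were 1 with the filter of 1 TPM and 1 with the replicate block, and 0 with no filter, without the trend and with any library left out (2 as reported). Calls in the acute phase list were 0 in all of these (2 as reported). In the C/EBP-ATF response list, trimmed-mean and median-ratio scaling each gave 3 calls (0 as reported). Over all tested genes these scalings called 250 and 248 genes lower (109 as reported) and 78 and 81 higher (181 as reported). The cause of these differences was not tested.

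For the members' log2 fold changes, trimmed-mean, median-ratio and quantile scaling gave -0.86, -0.86 and -0.66 for CEBPA, -1.06, -1.05 and -0.95 for CEBPB, -0.33, -0.32 and -0.23 for CEBPD, -0.27, -0.27 and -0.33 for CEBPG and -0.11, -0.11 and -0.23 for CEBPZ. These scalings moved the median of all tested genes to between 0.0069 and 0.0109. Adding the TPM of overlapping genes gave -0.38 for CEBPA and 0.58 for CEBPZ, and the length-weighted sum, added after the data were seen, gave -0.45 for CEBPA. With 1 library left out the values ran from -0.65 to -0.59 for CEBPA, -0.91 to -0.72 for CEBPB, -0.12 to -0.05 for CEBPD, -0.07 to -0.02 for CEBPG and -0.04 to 0.21 for CEBPZ.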

Other observations

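CEBPA and CEBPG lie 70766 bases apart on chromosome 19, and the genes around them did not share 1 direction. Within 500 kb of CEBPA, 15 other listed genes were found, of which 12 were tested, 0 were called by limma and the log2 fold changes ran from -0.82 to 0.98. PEPD, encoding a dipeptidase and the nearest listed gene past CEBPG at 4264 bases, had 148 and 135 TPM in shNUP210 and 153 and 142 TPM in shCon libraries. SLC7A10, an amino acid transporter gene 74084 bases from CEBPA, had 53.3 and 40.6 TPM in shNUP210 and 66.1 and 69.0 TPM in shCon libraries (limma adjusted p = 0.167). Around CEBPB, 9 of 14 listed genes were tested and 0 called, with log2 fold changes from -0.71 to 0.45. SPIDR, a DNA repair scaffold gene 603 bases from CEBPD, had 10.5 and 38.8 TPM in shNUP210 and 9.33 and 4.57 TPM in shCon libraries, with a wide spread within each group (limma adjusted p = 0.23). These genes were chosen by position after the members' values were known.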
